A study of Mus musculus with 12 samples.

Results

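The genotype by day interaction asks of each gene whether its level changed differently over 4 days of reprogramming in Gdap1-null than in wild type (WT) mouse embryonic fibroblasts. It is the Gdap1-null change from day 0 to day 4 minus the WT change over the same days, in log2 units, so that +1 means a change 2-fold higher in Gdap1-null cells. All 12 arrays of the series entered it, in 4 groups of 3: WT day 0, WT day 4, Gdap1-null day 0 and Gdap1-null day 4. One probe set was kept for each of 22180 genes, that with the highest mean level over the 12 arrays. The interaction passed an adjusted p of 0.05 (limma, Benjamini-Hochberg over all genes) for 877 genes, 3.95% of those tested.

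The labels give the genotypes as Wild type and Gdap1-null, with no strain, sex, allele or embryo age. Cells were grown in DMEM with 10% FBS. Reprogramming was started with OSKM, the transcription factors Oct4, Sox2, Klf4 and cMyc, delivered by overnight transduction. The treatment label names both mock and OSKM transduction for every array and does not say which the day 0 cells had, so a vector effect and an effect of the factors cannot be told apart. Nothing says whether the 3 replicates of a group were separate cultures or embryos. The p-values therefore measure only the spread between these arrays, which may be technical.

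The product of Gdap1 sits in the outer membrane of mitochondria and promotes their fission, and its loss causes a peripheral neuropathy. In the first days after OSKM transduction fibroblasts lose contractile and matrix genes, change their metabolism and divide faster, well before the pluripotency genes switch on. An interaction can arise in several ways: the genotypes may start apart and meet, start alike and part, or move in opposite directions. In bulk RNA, fewer cells of a type and less RNA per cell cannot be told apart.

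Array 1 of WT day 4 stood apart from the other arrays of its group. Its mean correlation over genes was 0.987 with the other WT day 4 arrays and 0.988 with the Gdap1-null day 4 arrays, whereas WT day 4 arrays 2 and 3 stood at 0.991 and 0.991 with their own group and at 0.983 and 0.980 with the Gdap1-null day 4 arrays. In 515 of the 877 genes (58.7%) array 1 lay on the Gdap1-null day 4 side of both other WT day 4 arrays; over all genes this share was 56.4%. Its label was kept, and the counts of the gene lists are given with and without it. Without it, 2140 genes passed (9.65%), 962 of them higher (4.34%) and 1178 lower (5.31%). These held 876 of the 877 genes, each in the same direction. List counts without array 1 below stand against these larger shares, not against 3.95%. Leaving out WT day 4 array 2 gave 811 genes and leaving out Gdap1-null day 4 array 2 gave 1017. Each of the other 9 arrays lowered the count when left out, to 395 without WT day 0 array 1, 486 and 484 without its arrays 2 and 3, 543 without WT day 4 array 3, 430, 428 and 427 without Gdap1-null day 0 arrays 1, 2 and 3, and 538 and 576 without Gdap1-null day 4 arrays 1 and 3.

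The targeted gene did not check the labels. Gdap1 was at 3.30, 3.24 and 3.04 on the WT day 0 arrays, 2.82, 3.02 and 3.15 at WT day 4, 3.10, 2.97 and 3.28 at Gdap1-null day 0 and 3.21, 2.98 and 3.28 at Gdap1-null day 4. The genotypes overlapped on both days, and the gene's mean lay at the 14.1 percentile of all genes (interaction 0.23 ± 0.17 SE, adjusted p = 0.505). Which part of the gene was deleted, and whether the probe set lies in it, is not stated in the labels. None of the 4 transduced factors had an interaction past the threshold (limma; 2 at an unadjusted p under 0.05, both higher). Klf4 rose by 2.94 in WT and by 3.28 in Gdap1-null cells (interaction 0.34, adjusted p = 0.146), and Myc changed by -1.02 and -0.94 (interaction 0.08, adjusted p = 0.795). Pou5f1 had an interaction of 0.28 (adjusted p = 0.242) and Sox2 one of -0.28 (adjusted p = 0.415). Whether these probe sets read the transduced copies is not given in the sources used here.

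Of the 877 genes, 476 were higher (2.15%) and 401 lower (1.81%) in the Gdap1-null change than in the WT change. At a change of at least 2-fold, 123 were higher (0.555%) and 56 lower (0.252%). Each day 4 array minus each day 0 array of Gdap1-null cells lay above every such WT difference in 1168 genes (5.27% of all). All such Gdap1-null differences lay below all WT ones in 1442 genes (6.5%). Across all genes the median interaction was -0.01, and the unadjusted p was under 0.05 for 4235 (19.1%).

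**Figure D1:**
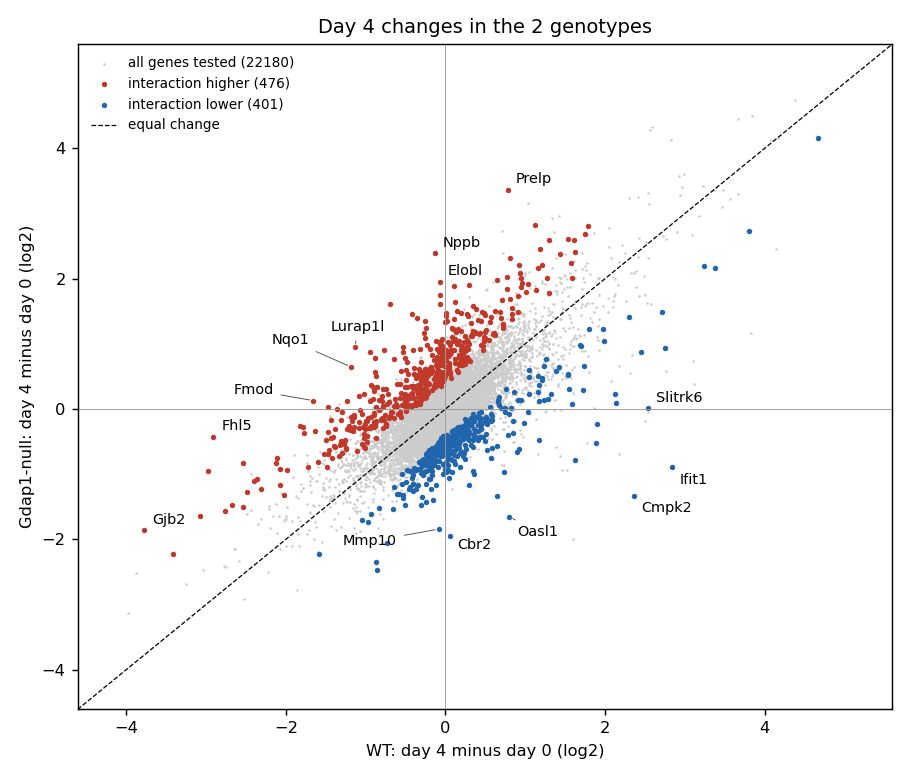
Each point is 1 of the 22180 genes, at its WT change (x axis) and its Gdap1-null change (y axis) from day 0 to day 4, both in log2 units. The 476 genes with a higher interaction (red) lie above the dashed line of equal change and the 401 with a lower one (blue) below it; grey points did not pass the threshold, including some far from the line.

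The shapes behind these counts differed between the directions. These are descriptions, since each day change shares its arrays with the interaction; over all genes the Gdap1-null day change passed for 30.8% (13.8% higher and 16.9% lower on day 4) and the WT one for 22.9% (11.1% and 11.7%). The genotype difference passed for 5.6% of genes on day 0 (2.48% higher in Gdap1-null cells and 3.12% lower) and for 20.7% on day 4 (8.34% and 12.4%). Among the 476 higher genes, 185 rose in Gdap1-null cells with no WT change past the threshold, 116 fell in WT cells with no Gdap1-null change past it, 73 rose in both, 59 fell in both and 42 rose in Gdap1-null but fell in WT cells; 1 passed in neither. Among the 401 lower genes, 227 fell in Gdap1-null cells with no WT change past the threshold, 68 rose in WT cells with no Gdap1-null change past it, 48 fell in both, 28 rose in both and 30 fell in Gdap1-null but rose in WT cells. The genotypes lay further apart on day 4 than on day 0 in 293 of the higher and 316 of the lower genes, and further apart on day 0 in 183 and 85. Over all genes the day 4 difference was the larger in 63.2%.

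**Figure D2:**
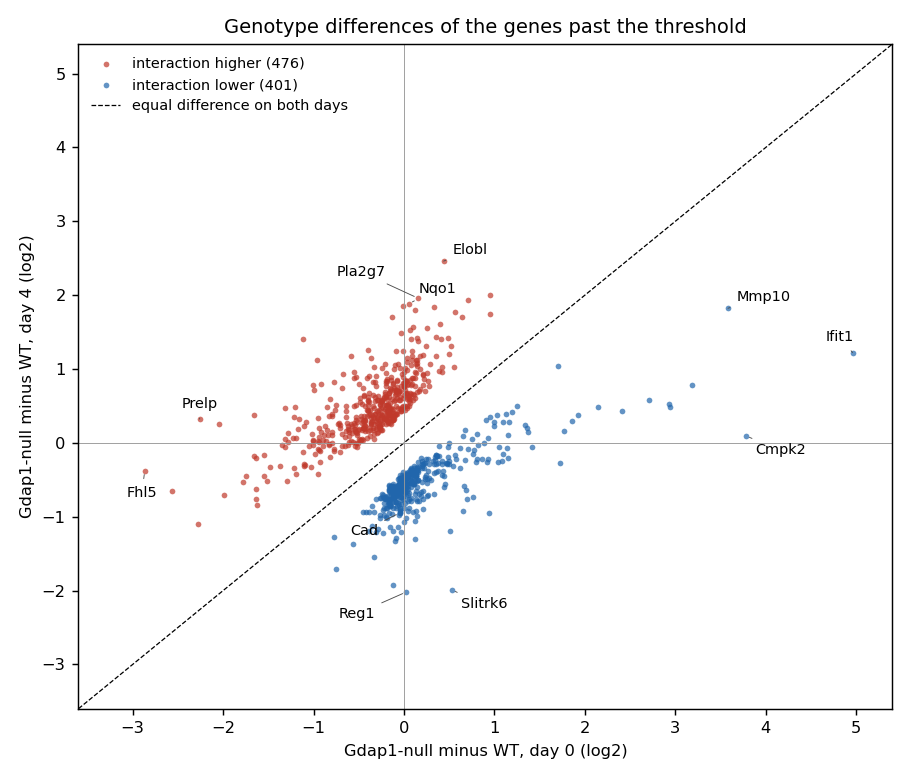
The 877 genes at their genotype difference on day 0 (x axis) and on day 4 (y axis), Gdap1-null minus WT in log2 units. Points near the horizontal zero line and far from the vertical one started apart and met by day 4 (Cmpk2, 3.78 then 0.09), and points near the vertical zero line started alike and parted (Reg1, 0.02 then -2.02).

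Interferon-induced genes made up much of the far lower end: Ifit1, Cmpk2, Oasl1, Irgm2, Mx2, Gbp7 and Rnf213 were among the 15 most negative interactions named. All 7 were higher in Gdap1-null than in WT cells on day 0, by 2.14 (Rnf213) to 4.96 (Ifit1). On day 4 the differences were between 0.09 (Cmpk2) and 1.22 (Ifit1), and none of the 7 passed (limma, adjusted p between 0.0968 for Ifit1 and 0.899 for Cmpk2). The WT level rose in 6 of them; in Oasl1 the WT change of 0.80 did not pass and the Gdap1-null level fell by 1.65. Interferons are secreted antiviral signals; through their receptors they activate STAT and IRF factors, which bind the interferon-stimulated response element (ISRE) in promoters of antiviral effectors. Promoter sequences of 3 of these genes are shown because each carries the letters of that element. The letters searched were GAAA, any 2 bases and GAAA again, on either strand, in windows from 250 bases before to 50 after each annotated start (RefSeq, GRCm38.p6). They occurred in 12 of 28 windows (42.9%) of the antiviral effector list and in 6 of 7 windows (85.7%) of the GBP and IRG list, against 3.44% of all 32851 windows. The 250 bases before the start are given 5′ to 3′ on the gene's strand, with the matches in capitals.

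Ifit1, chr19:34640639-34640888, plus strand: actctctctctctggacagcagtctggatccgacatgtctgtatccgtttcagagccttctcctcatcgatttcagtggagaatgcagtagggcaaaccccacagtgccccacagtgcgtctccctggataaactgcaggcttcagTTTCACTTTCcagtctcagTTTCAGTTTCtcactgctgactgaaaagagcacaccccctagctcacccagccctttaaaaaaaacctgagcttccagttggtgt

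Irgm2, chr11:58214727-58214976, plus strand: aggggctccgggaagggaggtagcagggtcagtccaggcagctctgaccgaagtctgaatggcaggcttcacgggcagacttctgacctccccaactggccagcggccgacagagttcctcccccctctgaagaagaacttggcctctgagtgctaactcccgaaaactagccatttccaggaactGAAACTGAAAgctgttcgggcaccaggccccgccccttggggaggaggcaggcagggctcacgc

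Gbp7, chr3:142530086-142530335, plus strand: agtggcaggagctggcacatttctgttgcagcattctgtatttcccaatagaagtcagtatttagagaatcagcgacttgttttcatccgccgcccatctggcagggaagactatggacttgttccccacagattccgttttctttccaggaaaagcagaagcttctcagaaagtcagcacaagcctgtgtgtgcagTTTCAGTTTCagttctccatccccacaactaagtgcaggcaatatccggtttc

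Ifit1 held 2 matches, and Irgm2 and Gbp7 held 1 each. The windows of Cmpk2, Oasl1, Ifit2, Ifi35 and Rnf213 held none, which says only that these letters are not in those windows. Mx2 and Tor3a had no window in the sequences used. Among the antiviral effectors past the threshold 2 of 6 windows (33.3%) held the letters. Over the 384 windows of lower genes the share with the letters was 2.6%, and over the 452 windows of higher genes 2.43%.

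Ifit1, an RNA-binding protein that blocks translation of viral RNA, had the most negative interaction among the named genes past the threshold. It was at 4.93, 5.27 and 5.28 on the WT day 0 arrays, 9.38, 7.93 and 6.68 at WT day 4, 10.22, 10.02 and 10.11 at Gdap1-null day 0 and 8.91, 9.87 and 8.88 at Gdap1-null day 4. The genotypes did not overlap on day 0 and did on day 4, where WT array 1 was the highest of its group. The WT level rose by 2.84 and the Gdap1-null level changed by -0.90, giving an interaction of -3.74 ± 0.69 (SE, adjusted p = 0.012). Without WT day 4 array 1 it was -3.05 (adjusted p = 0.00172). Cmpk2, a mitochondrial nucleotide kinase induced by interferon, moved in opposite directions. It was at 4.85, 5.06 and 4.80, then 8.30, 6.85 and 6.63 in WT cells, and at 8.66, 8.78 and 8.61, then 6.71, 8.20 and 7.16 in Gdap1-null cells. It rose by 2.36 in WT cells and fell by 1.33 in Gdap1-null cells (interaction -3.69 ± 0.56, adjusted p = 0.00456; -3.17 without WT day 4 array 1). Ifit2, a relative of Ifit1, also rose in WT cells, by 0.65, and fell in Gdap1-null cells, by 0.57 (interaction -1.22, adjusted p = 0.0127), as did Tor3a, an interferon-responsive torsin ATPase (0.89 and -0.66; interaction -1.55, adjusted p = 0.0182).

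Against 3.95% of all genes, 18.8% of the antiviral effectors and 15.4% of the GBP and IRG list passed. Of 32 measured antiviral effectors 1 was higher and 5 were lower. Their median interaction was -0.95, with a WT median change of 1.02 and a Gdap1-null one of -0.01. The median genotype difference went from 1.68 on day 0 to 0.80 on day 4. The 5 lower genes were Ifit1, Ifit2, Oasl1 (an oligoadenylate synthase-like protein, -2.45, adjusted p = 0.0302), Mx2 (a dynamin-like GTPase, -2.40, adjusted p = 0.0476) and Ifi35 (-0.89, adjusted p = 0.0473). Oas3, an oligoadenylate synthase that activates RNase L, was the one higher gene; it is outside the rule for named genes and was chosen after its values were seen. It was at 4.81, 4.98 and 4.96, then 5.66, 4.86 and 4.7 in WT cells, and at 5.06, 5.32 and 5.08, then 6.44, 6.50 and 6.21 in Gdap1-null cells (interaction 1.07, adjusted p = 0.0492). Of 13 GBP and IRG GTPases, which attack vacuoles of intracellular pathogens, 2 were lower, Irgm2 (-2.41, adjusted p = 0.0248) and Gbp7 (-2.13, adjusted p = 0.0339), and the median was -1.05. Rnf213, an interferon-induced ubiquitin ligase, stood at -1.66 (adjusted p = 0.0304). None of the 27 interferon signalling and sensor genes passed (limma; 11 at an unadjusted p under 0.05, all lower; median -0.27), against 1, lower, without WT day 4 array 1.

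These interferon results moved with single arrays of both days. Leaving out any 1 day 0 array left 2 lower effectors, as did leaving out Gdap1-null day 4 array 1 or 3. The mean level of the effector list was 7.46 on WT day 4 array 1 against 6.33 and 5.92 on arrays 2 and 3, and 7.81 on Gdap1-null day 4 array 2 against 7.19 and 7.30 on arrays 1 and 3. On day 0 the list stood between 5.46 and 5.51 in WT and between 7.26 and 7.33 in Gdap1-null cells. When WT day 4 array 1 was left out, 3 effectors were higher and 12 lower (median -0.62). In the same fit 5 GBP and IRG genes were lower (median -0.47), as were 5.31% of all genes, while 4.34% were higher. Leaving out 1 of the other arrays gave between 2 and 14 lower effectors, the most without WT day 4 array 3, and between 0 and 5 lower GBP and IRG genes; Oas3 then did not pass. Ifit1, Cmpk2 and Ifit2 passed in every fit that left out 1 array, with adjusted p of at most 0.0376, 0.0166 and 0.041. Oasl1, Irgm2, Mx2, Gbp7, Rnf213 and Ifi35 did not pass in 8, 8, 9, 8, 8 and 8 of the 12 such fits, with adjusted p of up to 0.0759, 0.0633, 0.111, 0.0826, 0.0782 and 0.113, and Tor3a in 1 (0.0516, without WT day 0 array 1). A trended and robust prior also ended the calls of Oasl1, Irgm2, Mx2, Gbp7 and Rnf213, at the same interactions (adjusted p = 0.0718, 0.0658, 0.103, 0.0812 and 0.0701), and averaging probe sets or quantile scaling ended that of Ifi35 (adjusted p = 0.109 and 0.0747).

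**Figure D3:**
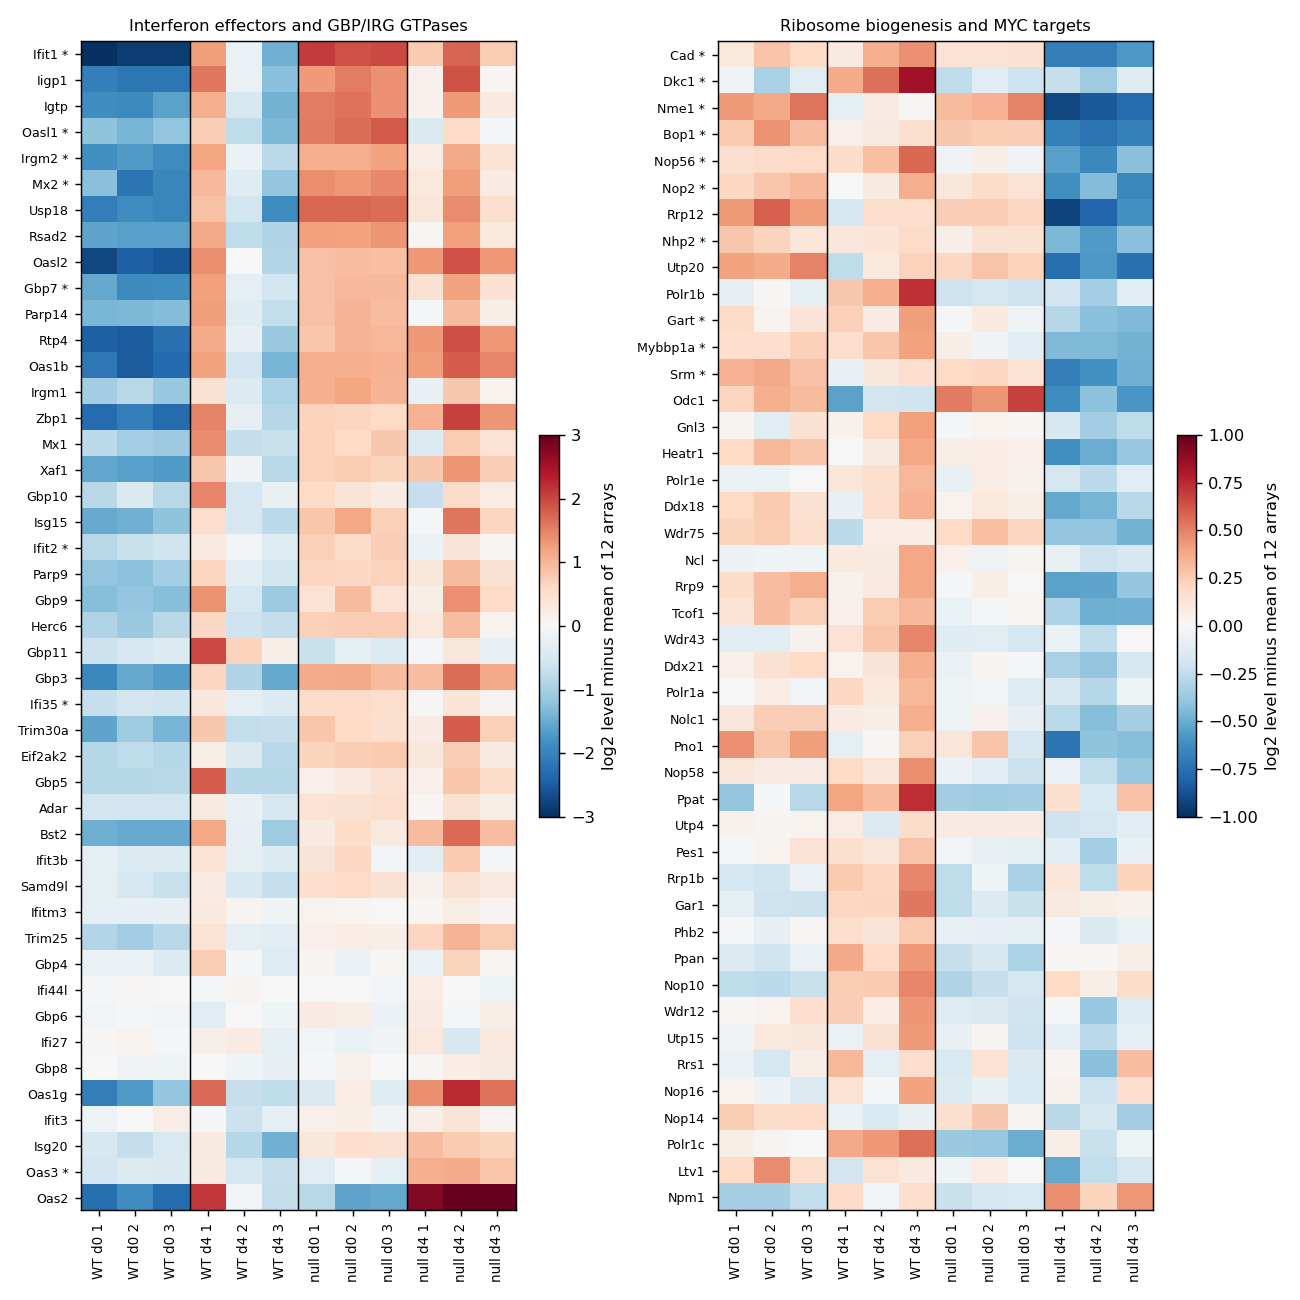
Levels of the interferon effectors and GBP and IRG GTPases (left) and of the ribosome biogenesis and MYC targets (right) on each of the 12 arrays, as log2 level minus the gene's mean over the arrays; genes are ordered by interaction and an asterisk marks those past the threshold. On the left, WT day 0 is low, WT day 4 array 1 is higher than arrays 2 and 3, and Gdap1-null arrays are above WT day 0 on both days for most genes; on the right, the Gdap1-null day 4 arrays are the lowest for most genes at the top.

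Antigen presentation and chemokine genes gave 3 calls. Against 3.95% of all genes, 11.1% of the MHC class I genes and 4.35% of the chemokines passed. Of 18 MHC class I presentation genes 2 were lower: Psmb10, a subunit of the immunoproteasome, which fell by 1.16 in Gdap1-null cells (interaction -1.46, adjusted p = 0.0135), and Tapbpl, a peptide editor of MHC class I, which fell by 0.94 there (interaction -0.74, adjusted p = 0.0289). Of 23 chemokines only Cx3cl1, a membrane-bound chemokine, passed. It fell by 1.31 in WT cells and changed by -0.17 in Gdap1-null cells, which had started lower (interaction 1.14, adjusted p = 0.0229). The chemokine median was -0.52 with all arrays and 0.13 without WT day 4 array 1, where 1 was higher and 1 lower; without that array 1 MHC class I gene was higher and 2 were lower. All genes then gave 4.34% higher and 5.31% lower. Tapbpl did not pass in 8 of the 12 fits that left out 1 array (adjusted p up to 0.0759) and Cx3cl1 not in 5 (up to 0.0651). Psmb10 passed in each of them.

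Ribosome biogenesis genes and MYC targets held 10 lower calls. MYC drives the supply of ribosomes and nucleotides for growth, and binds the E-box in many of those promoters. Of 44 measured members 10 were lower (22.7%, against 1.81% of all genes) and none higher (limma; unadjusted p under 0.05 for 25, all lower), and 43 of 44 had a negative interaction. The median was -0.36, with a Gdap1-null median change of -0.27 and a WT one of 0.12. The genotypes had a median difference of -0.10 on day 0 and of -0.47 on day 4. Cad, the enzyme that starts pyrimidine synthesis, was at 8.08, 8.26 and 8.17 on the WT day 0 arrays and 8.06, 8.33 and 8.43 at WT day 4. In Gdap1-null cells it was at 8.12, 8.12 and 8.13 on day 0 and 7.29, 7.29 and 7.40 on day 4. The genotypes overlapped on day 0 and did not on day 4 (interaction -0.90 ± 0.13, adjusted p = 0.00393). Bop1, needed for the large ribosomal subunit, was at 8.12, 8.31 and 8.17, then 7.92, 7.95 and 8.02 in WT cells, and at 8.13, 8.12 and 8.11, then 7.19, 7.13 and 7.18 in Gdap1-null cells. Its interaction was -0.71 (adjusted p = 0.00351): it fell in both genotypes, by 0.24 and by 0.95. Nme1, a nucleoside diphosphate kinase, fell by 0.45 in WT and by 1.23 in Gdap1-null cells (interaction -0.78, adjusted p = 0.00453). Nhp2, a protein of the snoRNPs that modify ribosomal RNA, fell by 0.60 in Gdap1-null cells alone (interaction -0.55, adjusted p = 0.0143). Srm, which makes the polyamine spermidine, had an interaction of -0.50 (adjusted p = 0.0333).

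Leaving out WT day 4 array 1 raised the count to 21 of 44 and the median was -0.43. The share of all genes that were lower rose to 5.31% in that fit. Leaving out 1 of the other arrays left between 4 and 9, with Cad, Bop1, Nme1 and Nhp2 past the threshold in every such fit, whereas Srm did not pass in 9 of 12 (adjusted p up to 0.0838). The cytosolic ribosomal proteins themselves gave no call among 39 (limma; 6 at an unadjusted p under 0.05, all lower; median -0.10), and 1, lower, without WT day 4 array 1.

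The promoter of Nme1 is shown because it carries the E-box letters CACGTG in both of its windows. As above, the 250 bases before the start are printed, on the gene's strand (RefSeq, GRCm38.p6), with the match in capitals.

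Nme1, first window, chr11:93968026-93968275, minus strand: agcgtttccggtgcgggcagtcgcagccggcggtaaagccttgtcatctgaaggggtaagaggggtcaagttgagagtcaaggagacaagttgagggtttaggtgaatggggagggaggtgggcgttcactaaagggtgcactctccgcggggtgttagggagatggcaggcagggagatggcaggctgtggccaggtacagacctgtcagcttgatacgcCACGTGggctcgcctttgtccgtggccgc

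These letters, the same on both strands, were in 10 of 42 windows (23.8%) of the ribosome biogenesis and MYC target list. Among its members past the threshold, 4 of the 9 windows (44.4%) held them. By genes this was 3 of 8, since both windows of Nme1, which overlap in part, count among the 4. The letters were in 59 of 384 windows (15.4%) of all lower genes and in 25 of 452 windows (5.53%) of all higher genes, against 8.07% of the windows of the genes tested and 7.15% of all windows. The windows of Cad and Nhp2 held none, and Bop1 and Srm had no window in the sequences used. Both other motifs searched, the E2F letters TTTCCCGC and the antioxidant element TGAC, any 3 bases and GCA, on either strand, were in 2.34% and 1.04% of the windows of lower genes and in 1.77% and 2.43% of those of higher genes, against 1.07% and 3.04% of all windows.

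Replication and mitosis genes leaned the same way, with smaller differences. Of 31 replication fork and nucleotide genes 6 were lower (19.4%, median -0.22), of 25 MCM and origin licensing genes 3 (12%, median -0.26), and of 49 G2/M genes 4 (8.16%, median -0.22). Of all genes 1.81% were lower. The list medians fell in both genotypes. The WT median changes were -0.06, -0.11 and -0.30 in that order, and the Gdap1-null ones -0.32, -0.37 and -0.53. The recombination and checkpoint list had 4% of its members past the threshold and the E2F list 4.76%, against 3.95% of all genes. Pola2, a subunit of the primase complex that starts DNA strands, was at 8.13, 8.27 and 8.09, then 8.26, 8.28 and 8.40 in WT cells, and at 8.18, 8.17 and 8.13, then 7.70, 7.78 and 7.78 in Gdap1-null cells. Only its Gdap1-null day 4 values stood apart from the other 3 groups (interaction -0.56 ± 0.11, adjusted p = 0.0135). Mcm5 and Mcm3, subunits of the replicative helicase, fell by 1.08 and by 0.72 in Gdap1-null cells, with WT changes of -0.19 and -0.07 that did not pass (interactions -0.89 and -0.65, adjusted p = 0.0273 and 0.0384). Cdc45, which completes that helicase, stood at -0.53 (adjusted p = 0.0438). Rpa2, which coats single-stranded DNA, Lig1, which joins Okazaki fragments, and Uhrf1, which carries DNA methylation through replication, stood at -0.57, -0.58 and -0.68 (adjusted p = 0.0258, 0.0311 and 0.0328). Of the mitotic genes, Cdc20, the activator of the anaphase-promoting complex, fell by 0.36 in WT and by 0.92 in Gdap1-null cells (interaction -0.56, adjusted p = 0.0361). The condensin subunit Ncapd2, the phosphatase Cdc25c and the kinesin Kif2c had interactions of -0.54, -0.55 and -0.51 (adjusted p = 0.035, 0.0366 and 0.0474). The checkpoint kinase Chek1 stood at -0.70 (adjusted p = 0.0255), the one call among 25 recombination and checkpoint genes. E2f6, a repressor of the E2F family, went the other way: it fell by 0.32 in WT and rose by 0.29 in Gdap1-null cells (interaction 0.61, adjusted p = 0.0171).

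With WT day 4 array 1 left out, 4.34% of all genes were higher and 5.31% lower. Then 1 recombination and checkpoint gene was lower, and of the 21 E2F and retinoblastoma genes 1 was higher and 3 were lower. The lower counts in that fit were 6 replication fork, 6 MCM and licensing and 18 G2/M genes, with medians of -0.28, -0.33 and -0.33. Leaving out 1 of the other arrays left 1 to 3, 0 to 3 and 0 to 1. Pola2 passed in all 12 fits that left out 1 array. The calls of Mcm5, Mcm3, Cdc45, Rpa2, Lig1 and Uhrf1 were lost in 6, 10, 10, 7, 9 and 10 of them, with adjusted p of up to 0.072, 0.102, 0.109, 0.0741, 0.0884 and 0.086. Those of Cdc20, Ncapd2, Cdc25c, Kif2c, Chek1 and E2f6 were lost in 10, 9, 11, 11, 6 and 1, with adjusted p of up to 0.0975, 0.0889, 0.0951, 0.114, 0.0696 and 0.0509. Centring the arrays on their medians ended the calls of Cdc45 and Kif2c (adjusted p = 0.0517 and 0.0565).

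Among mitochondrial genes the differences were small and mostly negative. Of 39 genes of respiratory complexes II to V and the citric acid cycle 3 were lower (median -0.16), and of 32 complex I genes 1 was lower (median -0.15). These were 7.69% and 3.12% of the lists, against 3.95% of all genes past the threshold in either direction. Uqcrq, a complex III subunit, was at 6.14, 6.26 and 6.28, then 5.84, 5.95 and 5.79 in WT cells, and at 6.13, 6.13 and 6.25, then 5.17, 5.32 and 5.20 in Gdap1-null cells. It fell in both genotypes, further in Gdap1-null cells (interaction -0.57 ± 0.11, adjusted p = 0.0153). Cyc1, which carries electrons in complex III, and Atp5g3, a subunit of the ATP synthase ring, had interactions of -0.44 and -0.46 (adjusted p = 0.0447 and 0.0375), and the complex I subunit Ndufs8 one of -0.48 (adjusted p = 0.0412). Slc25a5, an ADP/ATP carrier of the inner membrane and one of the most highly expressed genes that passed, was at 11.33, 11.39 and 11.34, then 11.46, 11.48 and 11.51 in WT cells, and at 11.22, 11.26 and 11.28, then 10.80, 10.86 and 10.86 in Gdap1-null cells (interaction -0.54, adjusted p = 0.00741). The 43 mitochondrial ribosomal proteins gave no call (limma; 15 lower and 1 higher at an unadjusted p under 0.05; median -0.18).

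Genes of mitochondrial shape and calcium handling, the processes Gdap1 itself is known for, gave 1 call each way in either list. The calls were 9.09% and 8.33% of these lists, against 3.95% of all genes. Of 22 fission, fusion and transport genes, Mfn1, an outer membrane GTPase that fuses mitochondria, was higher: it was at 7.53, 7.46 and 7.48, then 7.60, 7.63 and 7.69 in WT cells, and at 7.35, 7.35 and 7.31, then 7.90, 7.84 and 8.0 in Gdap1-null cells (interaction 0.42 ± 0.10, adjusted p = 0.0325). Rhot2, which links mitochondria to motor proteins, was lower: it rose by 0.34 in WT cells and changed by -0.08 in Gdap1-null cells (interaction -0.42, adjusted p = 0.0355). Of 24 calcium genes, Trpc1, a plasma membrane calcium entry channel, fell by 0.39 in WT and rose by 0.53 in Gdap1-null cells (interaction 0.93, adjusted p = 0.0082), and Letm1, an ion exchanger of the inner mitochondrial membrane, fell by 0.63 in Gdap1-null cells alone (interaction -0.52, adjusted p = 0.0204). The list medians were -0.08 and 0.00, the latter with a sign that turned with the scaling of the arrays.

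Without WT day 4 array 1, the lower counts were 4 for complexes II to V, 2 for complex I and 6 for the mitochondrial ribosomal proteins; 2 fission, fusion and transport genes were higher and 1 lower, as were 2 and 1 calcium genes. Of all genes 4.34% were then higher and 5.31% lower. Uqcrq, Slc25a5 and Trpc1 passed in all 12 fits that left out 1 array. Cyc1, Atp5g3, Ndufs8, Mfn1, Rhot2 and Letm1 did not in 10, 9, 11, 9, 10 and 4 of them, with adjusted p of up to 0.117, 0.101, 0.0992, 0.0898, 0.0982 and 0.0619. Quantile scaling ended that of Cyc1 (adjusted p = 0.056).

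**Figure D4:**
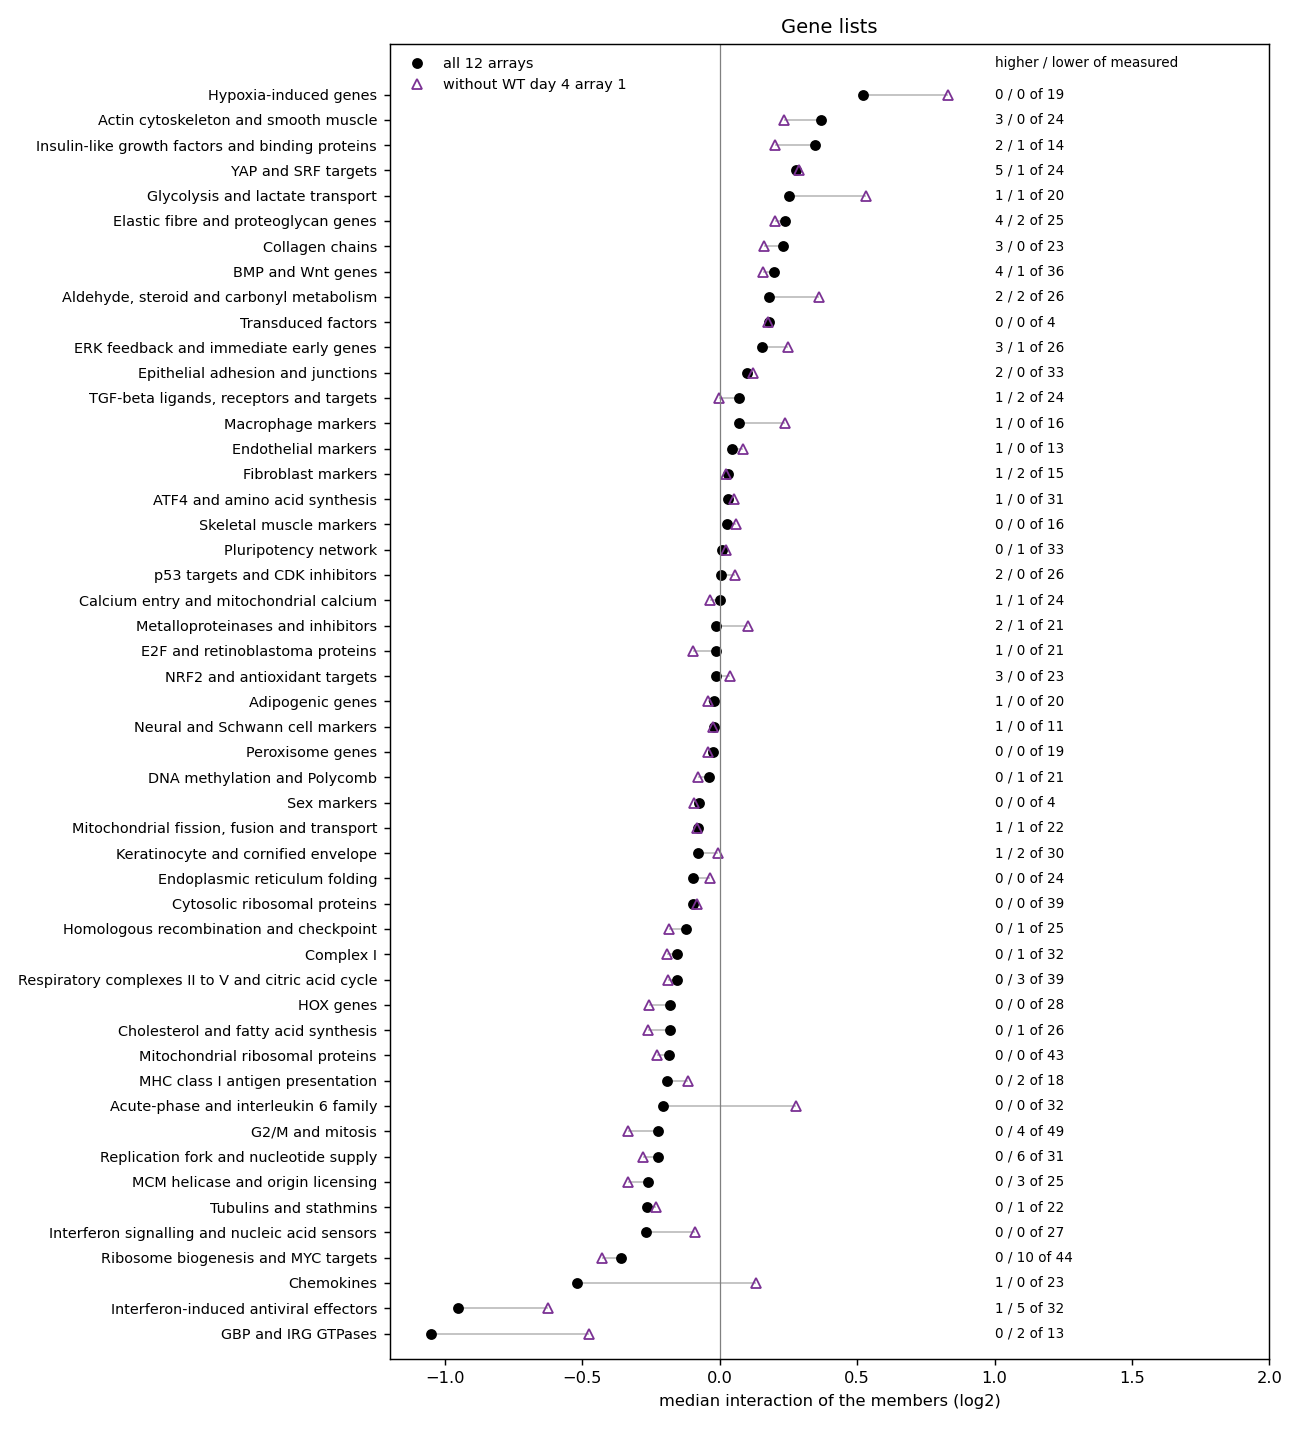
Median interaction (x axis, log2) of the measured members of each of 50 gene lists, with all 12 arrays (dots) and without WT day 4 array 1 (triangles); the column on the right counts the members past the threshold, higher and lower, with all 12 arrays. Hypoxia, glycolysis, acute-phase and chemokine lists lie far apart under the 2 settings, and ribosome biogenesis lies below zero under both.

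Hypoxia and glycolysis genes depended on WT day 4 array 1. Without it 4.34% of all genes were higher and 5.31% lower. None of 19 hypoxia-induced genes passed with all arrays (limma; 4 higher at an unadjusted p under 0.05; median 0.52), and 13 were higher without that array (median 0.83). The mean level of the list was 8.66 on WT day 4 array 1 against 7.38 and 7.44 on arrays 2 and 3, and between 8.68 and 8.87 on the Gdap1-null day 4 arrays. Bnip3, a mitophagy receptor named here after its values were seen, was at 8.79, 6.24 and 6.13 at WT day 4 and at 9.05, 9.04 and 9.07 at Gdap1-null day 4, with 6.75, 6.85 and 6.93 at WT day 0 and 8.03, 8.10 and 7.98 at Gdap1-null day 0. Its interaction was 0.80 (adjusted p = 0.597) with all arrays and 1.67 (adjusted p = 1.36e-05) without WT day 4 array 1. Of 20 glycolysis and lactate transport genes 1 was higher and 1 lower (10%, against 3.95% of all genes, median 0.25), and 15 were higher and 1 lower without that array (median 0.53). Both calls held in every fit that left out 1 array. Slc2a3, a high-affinity glucose transporter, was at 5.41, 5.35 and 5.31, then 6.64, 5.93 and 5.93 in WT cells, and at 4.82, 4.76 and 4.85, then 7.31, 6.83 and 7.25 in Gdap1-null cells (interaction 1.51 ± 0.24, adjusted p = 0.00572). Slc16a1, a lactate transporter, rose by 1.23 in WT cells toward the level that Gdap1-null cells had on both days (interaction -1.09, adjusted p = 0.00973). None of 32 acute-phase and interleukin 6 family genes passed with all arrays (limma; 2 higher and 2 lower at an unadjusted p under 0.05), and 12 were higher and 1 lower without that array. Their median was -0.21 with it and 0.28 without it.

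Prelp, a small proteoglycan that ties basement membranes to connective tissue, had the most positive interaction of the named genes. It was at 10.36, 10.49 and 10.36 on the WT day 0 arrays, 11.47, 11.04 and 11.05 at WT day 4, 8.21, 8.25 and 7.98 at Gdap1-null day 0 and 11.46, 11.41 and 11.67 at Gdap1-null day 4. The Gdap1-null arrays lay below the WT arrays on day 0, and the groups overlapped on day 4. It rose by 3.36 in Gdap1-null and by 0.78 in WT cells (interaction 2.58 ± 0.17, adjusted p = 5.14e-05). With the average of its probe sets in place of the highest the interaction was 1.27 (adjusted p = 0.00162), below those of other named genes. Nppb, the natriuretic peptide BNP, was at 6.02, 5.76 and 5.48, then 6.18, 5.21 and 5.47 in WT cells, and at 4.85, 4.34 and 4.7, then 7.12, 6.60 and 7.33 in Gdap1-null cells. It thus went from below WT on day 0 to above WT on day 4 (interaction 2.52 ± 0.35, adjusted p = 0.00276). Aldh1a1, which makes retinoic acid, crossed in the same way, from 6.63, 6.66 and 6.47 against 5.51, 5.82 and 5.41 on day 0 to 6.75, 6.65 and 6.67 against 7.31, 7.75 and 7.35 on day 4 (interaction 1.79, adjusted p = 0.000438). Car5b, a mitochondrial carbonic anhydrase, rose by 1.40 in Gdap1-null cells and changed by -0.36 in WT cells (interaction 1.75, adjusted p = 0.000551). Lgr5, a receptor for R-spondins and a stem cell marker, rose by 1.62 in Gdap1-null cells, to the range of WT cells (interaction 2.31, adjusted p = 0.0135). Elobl and Pdk4, a kinase that shuts pyruvate out of the citric acid cycle, stood further apart on day 4 than on day 0. Elobl was at 3.94, 3.95 and 4.32, then 3.91, 3.93 and 4.15 in WT cells, and at 4.61, 4.46 and 4.45, then 6.21, 6.49 and 6.67 in Gdap1-null cells (interaction 2.02, adjusted p = 0.000248). Pdk4 rose by 1.75 in Gdap1-null cells and changed by -0.07 in WT cells (interaction 1.83, adjusted p = 0.00703).

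**Figure D5:**
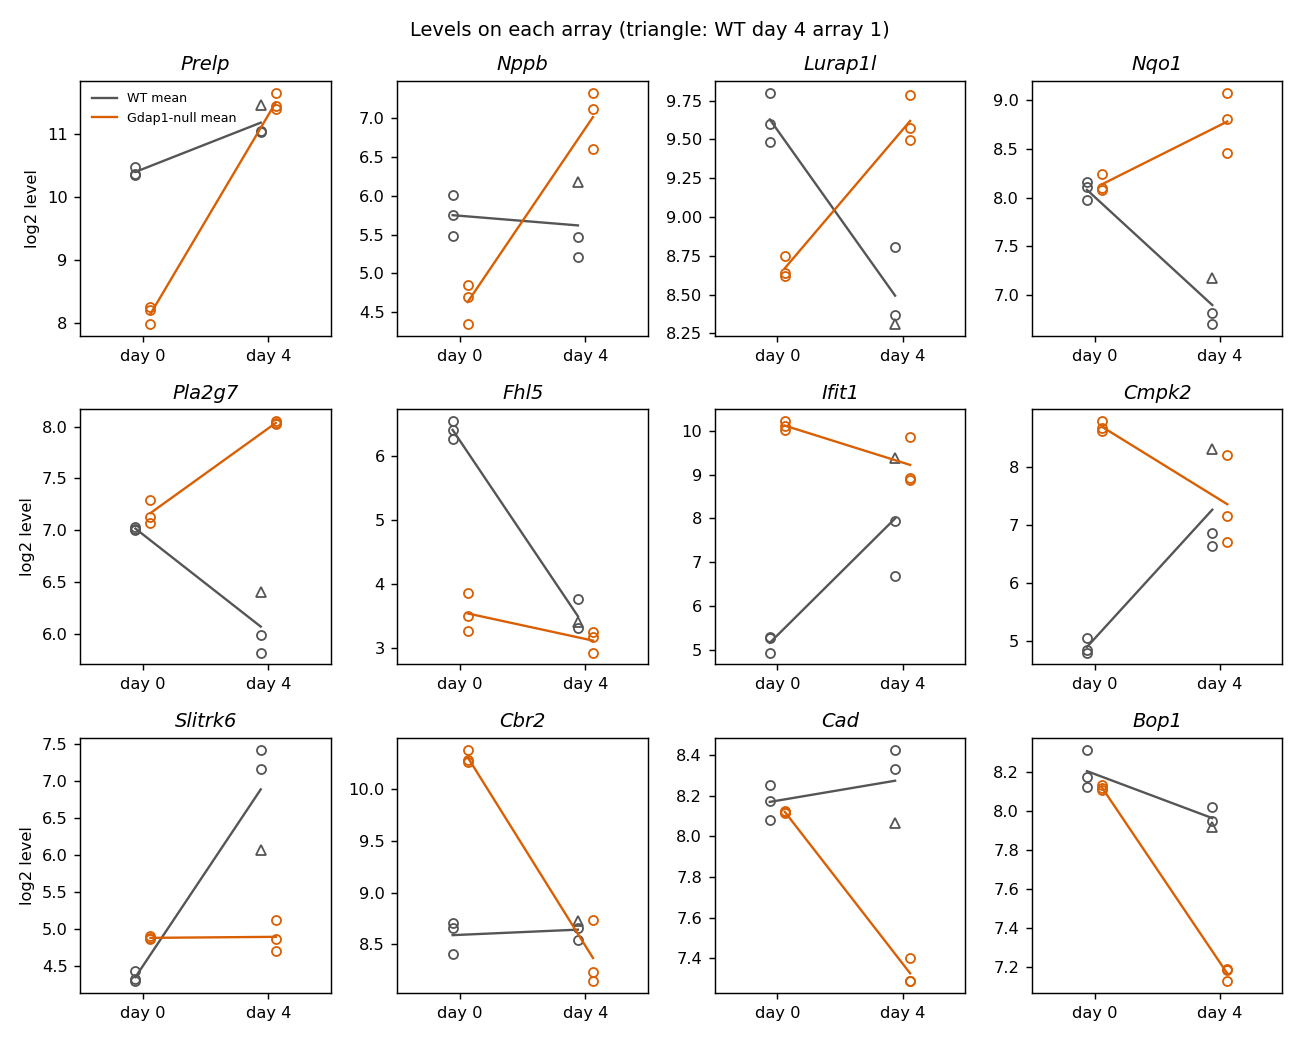
Log2 level (y axis) of 12 genes on day 0 and day 4 on each array, WT in grey and Gdap1-null in orange, with lines joining the group means; the triangle is WT day 4 array 1. Prelp, Ifit1, Cmpk2 and Cbr2 start apart and come together, Cad and Bop1 part, and Lurap1l, Nppb and Slitrk6 cross.

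Other genes of the higher end fell in WT cells. Fhl5, a LIM domain coactivator, was at 6.26, 6.54 and 6.41, then 3.40, 3.76 and 3.31 in WT cells, and already at 3.50, 3.85 and 3.26, then at 2.92, 3.17 and 3.25, in Gdap1-null cells (interaction 2.49 ± 0.22, adjusted p = 0.000224). Its Gdap1-null change of -0.42 did not pass. Map3k7cl and Gjb2, the gap junction protein connexin 26, also started lower in Gdap1-null cells and fell in both genotypes. Gjb2 went from 9.50, 9.62 and 9.61 to 5.74, 6.32 and 5.35 in WT cells and from 7.02, 7.11 and 6.90 to 5.59, 5.12 and 4.73 in Gdap1-null cells (interaction 1.91, adjusted p = 0.00703), and Map3k7cl fell by 2.98 and by 0.95 (interaction 2.03, adjusted p = 0.00241). Fmod, a proteoglycan of collagen fibrils, fell by 1.66 in WT cells and changed by 0.13 in Gdap1-null cells (interaction 1.78, adjusted p = 0.000354). All of these passed in each of the 12 fits that left out 1 array, as did the genes of the paragraph before; without WT day 4 array 1 their interactions were between 1.70 (Fmod) and 2.80 (Nppb). Fabp4, a fatty acid carrier of adipocytes, moved with WT day 4 array 1. It was at 7.55, 5.96 and 5.83 at WT day 4 and at 8.44, 8.46 and 8.0 at Gdap1-null day 4 after starting between 6.73 and 7.04 on all day 0 arrays. Its interaction of 1.87 (adjusted p = 0.0462) passed in only 1 of the 12 such fits, that without WT day 4 array 1 (2.42, adjusted p = 3.5e-05), and reached an adjusted p of 0.109 in the others; a trended and robust prior ended the call too (adjusted p = 0.0984). It was the one call among 20 adipogenic genes (5%, against 3.95% of all genes). Without WT day 4 array 1 there were 3 calls, with 9.65% of all genes past the threshold.

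The 5 largest interactions among named genes that rose in Gdap1-null and fell in WT cells belonged to Lurap1l, Nqo1, Pla2g7, Klhdc8a and Ppp1r14a. Lurap1l went from 9.80, 9.48 and 9.60 to 8.31, 8.80 and 8.37 in WT cells and from 8.62, 8.75 and 8.64 to 9.50, 9.78 and 9.57 in Gdap1-null cells, so that the genotypes changed places (interaction 2.08 ± 0.18, adjusted p = 0.000224). Klhdc8a, a kelch protein, did so too, from 7.21, 7.19 and 7.29 to 6.49, 6.61 and 6.26 in WT and from 6.0, 6.01 and 6.07 to 6.94, 6.89 and 6.98 in Gdap1-null cells (interaction 1.68, adjusted p = 7.87e-05). Nqo1, a quinone reductase, was alike on day 0, at 8.11, 8.16 and 7.98 in WT and 8.08, 8.24 and 8.10 in Gdap1-null cells. By day 4 it was at 7.17, 6.82 and 6.70 in WT and at 9.08, 8.46 and 8.81 in Gdap1-null cells (interaction 1.83, adjusted p = 0.00103). Pla2g7, which breaks down platelet-activating factor, went from 7.01, 7.03 and 7.01 to 6.41, 5.99 and 5.82 in WT cells and from 7.13, 7.29 and 7.07 to 8.03, 8.02 and 8.05 in Gdap1-null cells (interaction 1.81, adjusted p = 0.000303). Ppp1r14a, an inhibitor of myosin phosphatase, fell by 0.88 in WT and rose by 0.78 in Gdap1-null cells (interaction 1.66, adjusted p = 0.000992). In the other direction, besides Cmpk2, Ifit2 and Tor3a, P3h2, a collagen prolyl hydroxylase, rose by 0.85 in WT and fell by 0.36 in Gdap1-null cells (interaction -1.21, adjusted p = 0.00232), and Gpnmb, a membrane glycoprotein of melanosomes and lysosomes, rose by 0.59 and fell by 0.59 (interaction -1.18, adjusted p = 0.0027). These 7 passed in every fit that left out 1 array, with interactions of 1.99, 1.70, 1.97, 1.98, 1.74, -1.25 and -1.16 without WT day 4 array 1.

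Lower genes outside the interferon lists included several that rose more in WT cells. Slitrk6, a neuronal membrane protein, was at 4.32, 4.43 and 4.29, then 6.07, 7.16 and 7.42 in WT cells, and at 4.91, 4.86 and 4.87, then 5.12, 4.69 and 4.86 in Gdap1-null cells (interaction -2.52 ± 0.36, adjusted p = 0.00336; -2.93 without WT day 4 array 1, the lowest of its group). Reg1, a secreted lectin, was at 2.45, 2.67 and 2.74, then 4.31, 4.83 and 5.14 in WT cells, and between 2.51 and 2.95 on all Gdap1-null arrays (interaction -2.04, adjusted p = 0.00132). Tppp3, a tubulin-binding protein, rose by 2.13 in WT cells (interaction -1.89, adjusted p = 0.00398), and Efhd1, a mitochondrial calcium-binding protein, rose by 2.75 in WT and by 0.94 in Gdap1-null cells (interaction -1.81, adjusted p = 0.0173). Others were high in Gdap1-null cells on day 0 and fell. Cbr2, a carbonyl reductase, was at 10.27, 10.28 and 10.38 there on day 0 and at 8.14, 8.73 and 8.23 on day 4, against 8.66, 8.70 and 8.40, then 8.73, 8.54 and 8.66 in WT cells (interaction -1.99 ± 0.19, adjusted p = 0.000342). Mmp10, a secreted metalloproteinase, went from 8.39, 8.43 and 8.33 to 6.19, 7.15 and 6.28 in Gdap1-null cells and lay between 4.40 and 4.94 on all WT arrays (interaction -1.76, adjusted p = 0.00738). Clstn2, a calsyntenin, and Prnd, a relative of the prion protein, fell by 1.33 and by 2.48 in Gdap1-null cells (interactions -1.98 and -1.62, adjusted p = 0.0091 and 0.00132). All 8 passed in each of the 12 fits that left out 1 array; with averaged probe sets Efhd1 and Prnd passed at -0.94 and -0.86 (adjusted p = 0.0242 and 0.00266).

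Contractile, matrix and YAP target genes had mostly positive interactions, with a larger fall in WT than in Gdap1-null cells in the contractile genes named. The threshold was passed by 12.5% of the actin and smooth muscle genes and 25% of the YAP and SRF targets, against 3.95% of all genes. Assembly of actin stress fibres frees the SRF coactivators and keeps YAP in the nucleus, so these lists are linked in fibroblasts. Array 2 stood highest within both day 4 groups: the mean level of the actin and smooth muscle list was 8.67 on it against 8.09 and 8.27 on arrays 1 and 3 in WT cells, and 8.75 against 8.27 and 8.31 in Gdap1-null cells. The YAP and SRF, collagen and elastic fibre lists were also highest on array 2 in both. Counts without WT day 4 array 2 are given below. Why these arrays stood higher was not tested. Of 24 actin and smooth muscle genes 3 were higher and 22 had a positive interaction; the median was 0.37, with a WT median change of -1.34 and a Gdap1-null one of -1.07. Tpm2, a tropomyosin, was at 8.46, 8.36 and 8.52, then 6.02, 6.42 and 5.83 in WT cells, and at 7.97, 8.0 and 7.89, then 6.92, 6.95 and 6.78 in Gdap1-null cells (interaction 1.29 ± 0.17, adjusted p = 0.0026). It was below WT on day 0 and above WT on day 4. Myh11, the smooth muscle myosin, fell by 2.41 in WT and by 1.11 in Gdap1-null cells (interaction 1.29, adjusted p = 0.0153), and Myh9, a non-muscle myosin, fell by 0.90 and by 0.28 (interaction 0.62, adjusted p = 0.0188). Of 24 YAP and SRF targets 5 were higher and 1 lower (median 0.28). Ccn1, a matrix-associated growth regulator, was at 11.07, 11.09 and 10.88, then 9.45, 9.74 and 9.45 in WT cells, and at 10.92, 10.88 and 10.92, then 10.56, 10.62 and 10.47 in Gdap1-null cells (interaction 1.12, adjusted p = 0.00117). The genotypes overlapped on day 0 and stood apart on day 4. Ankrd1, a nuclear ankyrin protein, fell by 3.41 in WT cells and fell by 2.23 in Gdap1-null cells (interaction 1.18, adjusted p = 0.00703), and Amotl2, a YAP-binding motin, had an interaction of 0.57 (adjusted p = 0.0308). Tead2, a DNA-binding partner of YAP, was the lower gene (interaction -0.66, adjusted p = 0.0301).

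Calls covered 13% of the collagen, 24% of the elastic fibre and proteoglycan and 14.3% of the metalloproteinase list, against 3.95% of all genes. Of 23 collagen chains 3 were higher (median 0.23). Col4a5, a basement membrane chain, was at 5.96, 5.96 and 6.15, then 5.98, 6.05 and 5.92 in WT cells, and at 5.88, 5.83 and 5.89, then 6.90, 6.58 and 6.71 in Gdap1-null cells (interaction 0.90, adjusted p = 0.00336). Col8a2 and Col6a3 fell in WT cells, by 0.61 and by 0.78 (interactions 0.65 and 0.49, adjusted p = 0.0188 and 0.043). Of 25 elastic fibre and proteoglycan genes 4 were higher and 2 lower (median 0.24): besides Prelp and Fmod, Fbln5, which assembles elastic fibres, fell by 0.61 in WT and rose by 0.38 in Gdap1-null cells (interaction 0.99, adjusted p = 0.00807). Lum and Dcn, proteoglycans of collagen fibrils, were lower. Lum went from 7.95, 7.80 and 8.10 to 9.56, 9.77 and 9.27 in WT cells and stood at 8.69, 8.69 and 8.78, then 8.56, 9.34 and 8.50 in Gdap1-null cells (interaction -1.50, adjusted p = 0.0104), and Dcn rose by 1.68 in WT and by 0.99 in Gdap1-null cells (interaction -0.70, adjusted p = 0.0273). Of 21 metalloproteinases and inhibitors 2 were higher, Adamts5, which cleaves aggrecan (1.19, adjusted p = 0.00408), and Timp3, an inhibitor (0.87, adjusted p = 0.00501), and Mmp10 was lower.

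The threshold was passed by 13.9% of the BMP and Wnt and 12.5% of the TGF-beta genes, against 3.95% of all genes. Of 36 BMP and Wnt genes 4 were higher and 1 lower (median 0.20). Besides Lgr5 these were Dkk3, which fell by 1.16 in WT cells alone (interaction 1.05, adjusted p = 0.0105), and the Wnt antagonists Sfrp2 and Sfrp1. Sfrp2 rose by 0.81 in WT and by 1.69 in Gdap1-null cells (0.88, adjusted p = 0.00567). Sfrp1 rose by 0.93 in Gdap1-null cells (1.02, adjusted p = 0.0311). The ligand Wnt10b was lower (-0.57, adjusted p = 0.0335). Of 24 TGF-beta genes 1 was higher, the coreceptor Eng (0.73, adjusted p = 0.00362), and 2 were lower, the matrix protein Tgfbi (-0.76, adjusted p = 0.0301) and the transcription factor Twist2 (-0.75, adjusted p = 0.0438). F2r, a thrombin receptor, and Csrp1, a LIM protein of the actin cytoskeleton, among the most highly expressed genes that passed, fell in both genotypes, by 1.41 and by 1.01 in WT and by 0.44 and by 0.59 in Gdap1-null cells (interactions 0.98 and 0.41, adjusted p = 0.00794 and 0.0394).

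Without WT day 4 array 1 the higher counts were 5 actin and smooth muscle, 5 YAP and SRF, 5 collagen, 5 elastic fibre and proteoglycan, 3 metalloproteinase, 8 BMP and Wnt and 2 TGF-beta genes, with medians of 0.23, 0.29, 0.16, 0.20, 0.10, 0.16 and 0.00. The lower counts were then 0, 1, 1, 3, 1, 2 and 3 in the same order. In that fit 4.34% of all genes were higher and 5.31% lower. Leaving out 1 of the other arrays gave 2 to 6 actin and smooth muscle, 2 to 7 YAP and SRF, 1 to 5 collagen and 3 to 6 elastic fibre genes. Each of these highest counts came without WT day 4 array 2. Tpm2, Myh11, Ccn1, Ankrd1, Col4a5, Fbln5, Lum, Adamts5, Timp3, Dkk3, Sfrp2, Eng and F2r passed in all 12 fits that left out 1 array. Myh9, Amotl2, Tead2, Col8a2, Col6a3 and Dcn did not in 2, 7, 8, 1, 10 and 6 of them, with adjusted p of up to 0.0537, 0.0826, 0.0817, 0.0504, 0.103 and 0.0754. Sfrp1, Wnt10b, Tgfbi, Twist2 and Csrp1 did not in 9, 9, 9, 10 and 10, with adjusted p of up to 0.0784, 0.0882, 0.077, 0.108 and 0.106. With averaged probe sets Sfrp2 had an interaction of 0.38 and did not pass (adjusted p = 0.216). Quantile scaling ended the call of Twist2 (adjusted p = 0.0596), and centring the arrays ended those of Col6a3 and Csrp1 (adjusted p = 0.0509 and 0.0536).

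Redox and lipid genes gave scattered calls. Against 3.95% of all genes, 13% of the NRF2, 15.4% of the aldehyde, 3.85% of the cholesterol and 3.23% of the ATF4 list passed. Of 23 NRF2 and antioxidant genes 3 were higher (median -0.01): Nqo1, Gclm, which limits glutathione synthesis (0.53, adjusted p = 0.02), and the glutathione transferase Gsta4, which rose in both genotypes from a lower Gdap1-null start (0.79, adjusted p = 0.0167). Of 26 aldehyde, steroid and carbonyl genes 2 were higher, Aldh1a1 and the retinol-oxidising Adh7 (1.08, adjusted p = 0.0136), and 2 lower, Cbr2 and the steroid reductase Akr1c18 (-0.52, adjusted p = 0.0425). Akr1c18 had one of the steepest rises, from between 4.15 and 4.37 to between 8.89 and 8.95 in WT cells and from between 4.46 and 4.77 to between 8.70 and 8.80 in Gdap1-null cells. Fasn, the fatty acid synthase, was the one call among 26 cholesterol and fatty acid genes; it fell by 0.54 in WT and by 1.31 in Gdap1-null cells (-0.78, adjusted p = 0.0192). Vldlr, a lipoprotein receptor, was the one call among 31 ATF4 and amino acid genes (0.94, adjusted p = 0.0317). Omitting WT day 4 array 1 gave higher counts of 5 NRF2, 7 aldehyde and 3 ATF4 genes and a lower count of 4 cholesterol and fatty acid genes. The shares of all genes in that fit were 4.34% higher and 5.31% lower. Gsta4 and Adh7 passed in all 12 fits that left out 1 array, and Gclm, Akr1c18, Fasn and Vldlr did not in 3, 10, 2 and 10 (adjusted p up to 0.0593, 0.1, 0.059 and 0.0833). Quantile scaling and array weights also ended the call of Akr1c18 (adjusted p = 0.0593 and 0.051).

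Signalling genes of the ERK and insulin-like growth factor pathways followed. Calls covered 15.4% of the ERK, 21.4% of the insulin-like growth factor and 7.69% of the p53 list, against 3.95% of all genes. Of 26 ERK feedback and immediate early genes 3 were higher and 1 lower (median 0.15). Spry1, an inhibitor of receptor tyrosine kinase signalling, fell by 1.44 in WT cells to the level that Gdap1-null cells had on both days (interaction 1.26, adjusted p = 0.013). Dusp5, a nuclear ERK phosphatase, fell by 1.27 in WT and by 0.54 in Gdap1-null cells (0.73, adjusted p = 0.00718), and Etv5, an ERK-responsive factor, rose by 1.06 in Gdap1-null cells alone (0.79, adjusted p = 0.0158). Jund, an AP-1 subunit, was lower (-0.64, adjusted p = 0.0239). Of 14 insulin-like growth factor genes 2 were higher, Irs2, a receptor substrate (0.65, adjusted p = 0.0187), and Igfbp2 (1.24, adjusted p = 0.0327), and 1 lower, Igfbp5, which fell by 1.35 in Gdap1-null cells alone (-1.05, adjusted p = 0.0214). Of 26 p53 targets 2 were higher, Perp, a desmosomal protein that rose by 1.12 in WT and by 2.82 in Gdap1-null cells (1.70, adjusted p = 0.00132), and the lesion-bypass polymerase Polk (0.47, adjusted p = 0.0366). Without WT day 4 array 1, 7 ERK genes were higher and 1 lower, against 4.34% and 5.31% of all genes. In the same fit 2 insulin-like growth factor genes were higher and 1 lower, and 2 p53 targets were higher. Spry1, Dusp5, Etv5 and Perp passed in all 12 fits that left out 1 array, and Jund, Irs2, Igfbp2, Igfbp5 and Polk did not in 5, 2, 10, 6 and 9 (adjusted p up to 0.0666, 0.0539, 0.0783, 0.0619 and 0.0936). With averaged probe sets Etv5 stood at 0.54 and Jund at -0.36, and neither passed (adjusted p = 0.0613 and 0.0998); centring the arrays ended the call of Polk (adjusted p = 0.0557).

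Of the early epithelial and pluripotency genes, 3.03% of the pluripotency list, 6.06% of the epithelial adhesion list and 10% of the keratinocyte list passed, against 3.95% of all genes. The DNA methylation and Polycomb list had 4.76% and the tubulins and stathmins 4.55%. Of 33 pluripotency genes only Tbx3, a T-box factor, passed, and it was lower. It was at 7.40, 7.42 and 7.38, then 6.83, 6.89 and 6.84 in WT cells, and at 8.30, 8.37 and 8.25, then 7.08, 7.32 and 7.07 in Gdap1-null cells, falling from a higher start (interaction -0.61, adjusted p = 0.0127). The median of the list was 0.01. Of 33 epithelial adhesion genes 2 were higher. Pkp2, a desmosomal plaque protein, was at 6.95, 6.98 and 7.04, then 5.72, 4.98 and 4.89 in WT cells, and at 6.94, 6.96 and 6.97, then 6.86, 6.51 and 6.68 in Gdap1-null cells (interaction 1.52, adjusted p = 0.00568), and Jup, plakoglobin, rose by 0.49 in Gdap1-null cells alone (0.62, adjusted p = 0.00806). Of 30 keratinocyte genes 1 was higher, Perp, and 2 lower. Slurp1, a secreted keratinocyte protein, rose by 3.81 in WT and by 2.73 in Gdap1-null cells (-1.08, adjusted p = 0.0323), and the keratin Krt16 by 1.21 and by 0.47 (-0.75, adjusted p = 0.0339). Of 21 DNA methylation and Polycomb genes Tet3, which oxidises 5-methylcytosine, was lower (-0.65, adjusted p = 0.0339). Tuba1a was the one call among 22 tubulins and stathmins (-0.67, adjusted p = 0.0281). Tbx3, Pkp2 and Jup passed in all 12 fits that left out 1 array, and Slurp1, Krt16, Tet3 and Tuba1a did not in 7, 8, 11 and 8 (adjusted p up to 0.0825, 0.0909, 0.0938 and 0.0702). Averaging probe sets ended the call of Tuba1a (adjusted p = 0.136). Without WT day 4 array 1, 4.34% of all genes were higher and 5.31% lower. With WT day 4 array 1 omitted, 5 tubulins and stathmins and 4 DNA methylation and Polycomb genes were lower, 1 pluripotency gene was higher and 1 lower, 3 keratinocyte genes were higher and 3 lower, and 2 epithelial adhesion genes were higher. HOX genes (28), endoplasmic reticulum folding genes (24) and peroxisome genes (19) gave no call (limma; 8, 6 and 2 at an unadjusted p under 0.05), against 4, 1 and 1 without WT day 4 array 1.

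Taf1d and Srsf2 were among the most highly expressed lower genes. Taf1d, a subunit of the RNA polymerase I selectivity factor, was at 10.71, 10.71 and 10.92, then 11.01, 11.25 and 11.38 in WT cells, and at 10.98, 10.94 and 10.93, then 10.57, 10.41 and 10.58 in Gdap1-null cells. It rose in WT and fell in Gdap1-null cells (interaction -0.86, adjusted p = 0.00675). Srsf2, a splicing factor, fell by 0.64 in Gdap1-null cells alone (interaction -0.63, adjusted p = 0.0169).

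Markers checked the labelled cell type and other cells. Calls covered 20% of the fibroblast, 6.25% of the macrophage, 7.69% of the endothelial and 9.09% of the neural markers, against 3.95% of all genes. The 15 fibroblast markers had mean levels between 10.20 and 10.51 on all 12 arrays; Thy1 was higher (0.58, adjusted p = 0.021, lost in 4 of 12 fits that left out 1 array, with adjusted p up to 0.0619) and Dcn and Lum were lower. The 16 macrophage markers were lower in Gdap1-null cells on both days, with a median difference of -1.41 on day 0 and of -1.28 on day 4 and mean levels between 5.95 and 6.39 on the WT arrays and between 4.7 and 4.91 on the Gdap1-null arrays. Within WT day 4 their mean level was 6.39 on array 1 against 6.07 and 5.95 on arrays 2 and 3, the order of the interferon effectors. One of the 16 had an interaction past the threshold, Laptm5, a lysosomal protein of blood cells (0.88, adjusted p = 0.0082), and the median was 0.07. On day 0 the interferon effectors were higher in Gdap1-null cells, and the macrophage markers were lower there. The part of macrophages in the interferon results was not tested. One endothelial marker of 13, Emcn (1.36, adjusted p = 0.000546), and 1 neural and Schwann cell marker of 11, Erbb3 (1.04, adjusted p = 0.0198, lost in 5 of 12 such fits, up to 0.0587), were higher. The 16 skeletal muscle markers gave no call (limma; 1 at an unadjusted p under 0.05), and their mean levels lay between 4.41 and 4.78. With WT day 4 array 1 omitted, 1 fibroblast marker was higher and 2 were lower, 2 macrophage, 2 endothelial and 1 neural and Schwann cell marker were higher, and no skeletal muscle marker passed. That fit called 4.34% of all genes higher and 5.31% lower. With all 12 arrays none of 4 sex-linked genes had an interaction past the threshold (limma, 0 at an unadjusted p under 0.05). An interaction leaves out a genotype difference that is the same on both days. The genotype difference itself passed for 1 higher and 1 lower of these genes in Gdap1-null cells on day 0. On day 4 it passed for 1 higher and 2 lower. Whether the genotypes differed in sex was not tested.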

How the data were processed

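Total RNA of 12 fibroblast samples was measured on Affymetrix whole-transcript arrays. Per the submitters' processing notes the arrays were processed with Affymetrix Expression Console (no version given); how they were normalized is not given in the sources used here. Deposited values are log2 levels of 41345 probe sets, from 1.33 to 13.35, with array medians between 5.22 and 5.32. They hold no counts. The precision depends on the number of arrays and on the spread between them. By the platform annotation 23521 probe sets carry 1 gene symbol, 1814 several and 16010 none; only the first kind was named. In 1082 genes with more than 1 probe set, that with the highest 12-array mean was kept, and 22180 genes were tested, 99.2% of them found by ID in RefSeq.

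The difference of day 4 changes was fitted as 4 group means, with no covariate, in limma 3.58.1 (R 4.3.3; lmFit and eBayes, 8 residual and 4.56 prior degrees of freedom), and tested 2-sided at a Benjamini-Hochberg adjusted p of 0.05. It was tested on simulated data first. No label names a batch.

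The named genes are Gdap1 and the transduced factors; the 15 largest interactions in each direction; up to 4 members past the threshold per list by smallest p, or all where 5 or fewer passed; the 5 largest in each direction with opposite day changes past the threshold; and the 5 with the highest level in each direction. For the largest and highest, clone and predicted names, small RNAs, pseudogenes and olfactory and vomeronasal receptors were left out. The 50 lists have 1345 members, of which 1236 were measured. The members, lists and motifs were chosen with earlier results of these data known. Alternatives were another treatment of probe sets, a filter on low levels, quantile scaling, median centring, a trended robust prior, array weights, a replicate block, stricter thresholds and each array left out. No label says that same-numbered arrays were paired. Over 18 pairs of same-numbered arrays the correlations of deviations from the group means lay between -0.06 and 0.18, with 2 above 0.1. Both of these joined WT day 4 to Gdap1-null day 4, at 0.18 for replicate 2 and 0.12 for replicate 3. Whether the day 4 arrays of a number were handled together is not given.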

Additional observations from a re-analysis of the deposited data

Results flagged for a closer look

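The interaction is itself a test of whether the same contrast, day 4 against day 0, differs between the genotypes, so each gene past its threshold is listed here through the counts: 476 genes were higher and 401 lower. Among them, 42 higher and 30 lower genes had opposite day changes past the threshold in the genotypes. Of these, the named genes with the largest positive interactions were Lurap1l (2.08), Nqo1 (1.83), Pla2g7 (1.81), Klhdc8a (1.68) and Ppp1r14a (1.66). They rose in Gdap1-null cells. Those with the largest negative interactions were Cmpk2 (-3.69), Tor3a (-1.55), Ifit2 (-1.22), P3h2 (-1.21) and Gpnmb (-1.18), which fell there.

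Probe sets without a single gene symbol, which the comparisons above do not use, held some calls when all probe sets were fitted together. Of 17824 such probe sets 64 were higher and 36 lower (0.561% in all). The same fit called 503 of all 41345 probe sets.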

How the results depend on the processing

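The counts stood at 877 genes, 476 higher and 401 lower. They stayed within 1.5 times of these with averaged probe sets (834), genes at or above the 25th percentile of level (1127), quantile scaling (944) and median centring (822). The same held with the replicate block (801, of which 449 higher and 352 lower). This block does not show whether same-numbered arrays were paired. With all probe sets 503 passed, 185 of them lower. The trended and robust prior gave 668 lower. Array weights gave 1852, 828 higher and 1024 lower. At least a 2-fold change left 179, 123 higher and 56 lower, and an adjusted p under 0.01 left 210, 144 higher and 66 lower. Leaving out 1 array gave 395 to 2140 genes, 260 to 962 higher and 135 to 1178 lower, with the highest counts without WT day 4 array 1. Of the 121 named genes past the threshold none reversed under the settings run for single genes (those without all probe sets or a stricter threshold); 64 passed wherever tested and 57 were lost under at least 1 setting. With the filter on low levels 119 of the 121 were tested. The replicate block lost 11 of the 121, and leaving out WT day 4 array 1 lost none. The sign of the median turned with the scaling for the E2F, calcium, p53, peroxisome and fibroblast marker lists, all within 0.04 of zero. The cause of these differences was not tested, beyond fewer arrays or another number of features tested. With 3 arrays per group, a gene that did not pass is not shown to change alike in both genotypes.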
